A study of Homo sapiens with 8 samples.

Results

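The genes described here make cholesterol and fatty acids, sense their supply, or move cholesterol through the cell, and their RNA was compared between HEK293 cells labelled as knockout (KO) of TIP60 and control cells. TIP60, the product of KAT5, adds acetyl groups to histones as the enzyme of a chromatin-remodelling complex. Members are 38 genes listed by symbol and sorted by role. The rule uses no measured value, but the list was drawn up with earlier results of these data known. The symbols were matched to the Entrez GeneIDs of the deposited count tables, where all 38 were found among 27936 genes with an ID. They form 5 branches: the mevalonate pathway to squalene (9 genes), the steps from squalene to cholesterol (10), control of the SREBP factors (5), sterol uptake and LXR export (6) and fatty acid synthesis (8).

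The series holds 8 stranded, poly(A)-selected RNA-seq libraries from HEK293, an established line derived from human embryonic kidney, read as 80 bp pairs. Guide expression was switched on by doxycycline at 1 µg/ml, given for 3 days to every line, the controls included. KO cells have the genotype label HEKg1/C9 and control cells HEKg1. Neither label is explained in the sources used here, and the difference between them goes with the arm in every library. Each arm has 2 libraries with sgRNA1 and 2 with sgRNA2, which makes 4 KO and 4 control libraries. The labels do not name the targets of the control guides, nor say whether a line is 1 clone or whether replicates were separate cultures, so p-values measure the spread between these libraries, which may be technical.

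Cholesterol and fatty acid synthesis share a switch. SREBP precursors (SREBF1 and SREBF2) sit in the endoplasmic reticulum membrane bound to their escort SCAP. When membrane sterol is high, INSIG proteins hold the complex there; when it is low, SCAP carries the precursor to the Golgi, where proteases release a factor that enters the nucleus and activates most genes of both pathways, INSIG1 and SREBF2 among them. Oxysterols act through the nuclear receptors LXRα and LXRβ, whose targets include exporters such as ABCA1 and ABCG1. These are background facts about the pathway and not results of these data.

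Library totals ran from 3723992 counts in control sgRNA1 replicate 2 to 18841774 in KO sgRNA2 replicate 1. Levels are given in CPM, counts relative to library totals scaled by TMM factors. When 4 values are listed for an arm they are sgRNA1 replicates 1 and 2, then sgRNA2 replicates 1 and 2. KAT5 itself read 18.6, 18.3, 20.2 and 17.99 CPM in the KO libraries and 48.1, 45.5, 44.5 and 48.98 CPM in the controls, so KO libraries kept 40.2% of the control level (log2 fold change -1.32 ± 0.064, adjusted p = 6.71e-13 by edgeR's quasi-likelihood test; the error given with a log2 fold change is its SE). Among defining markers of HEK293, NEFM, VIM and KRT18 were present in every library, while PAX2 and LHX1 were at most 1.31 and 0.292 CPM. Marker lists of hepatocytes and adipocytes, cells with high lipid synthesis, summed to 0.157 to 0.297 and 1.92 to 2.57 CPM in KO libraries, and to 0 and 0.969 to 1.95 CPM in controls. The hepatocyte markers APOH and F9 had 0 counts everywhere. Summed markers of leukocytes were 0.198 to 0.519 CPM in KO and 0.0808 to 0.539 CPM in control, of endothelium 0.594 to 1.40 and 0 to 0.325 CPM, and of fibroblasts 0.233 to 1.36 and 0 to 1.24 CPM.

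Most members fell in the KO cells. Of the 36 members with enough counts to test, 25 were lower, 7 were higher and 4 did not pass an adjusted p of 0.05 (edgeR quasi-likelihood test with the guide number as a term, Benjamini-Hochberg adjustment over all 14455 genes tested). Many genes differed between the arms: 31.8% of all tested genes were called higher and 31.2% lower. Against that background, 69.4% of the tested members were lower and 19.4% higher. Abundant genes leaned lower as a class: of the 7153 genes with a mean of at least 30 CPM, 28.4% were called higher and 41.7% lower. Of the 27 tested members in that class, 20 were lower and 5 higher. The median log2 fold change was -0.44 over the members, 0.0068 over all tested genes and -0.059 over the abundant ones. In RNA from whole cultures, a change in every cell and a larger change in part of the cells cannot be told apart.

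The members that rose were SQLE and SC5D of the post-squalene branch, NPC1, NPC2, ABCG1 and MYLIP of the uptake and export branch, and FADS2. GGPS1, TM7SF2, SCAP and ACSS2 were not called. ABCA1 (29 counts over the KO libraries, 11 over the controls) and ACACA (14 and 18 counts) were too low to test. The 4 KO values lay wholly below the 4 control values for 25 members and wholly above for 5, against 25.6% and 27.3% of all tested genes. A fold of at least 2 was reached by ABCG1, NPC1 and ELOVL6, and by 9.53% of all tested genes.

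**Figure D1:**
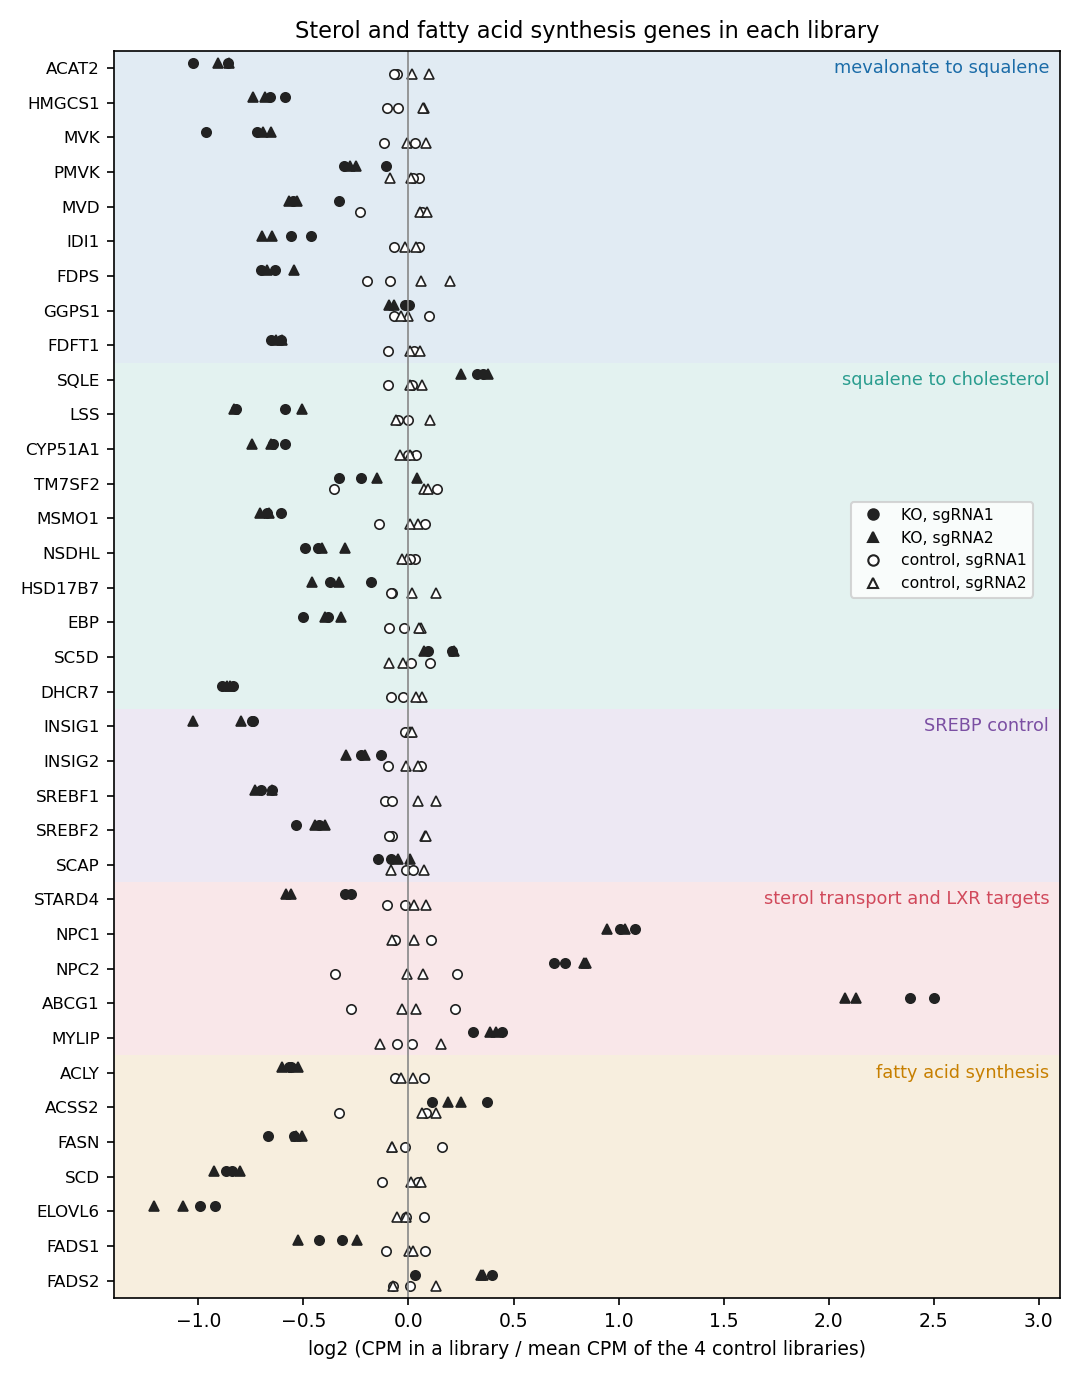
Level of each tested member in every library, as log2 of its CPM over the mean of the control libraries (horizontal axis), with members in rows by branch, filled symbols for KO, open symbols for control, circles for sgRNA1 and triangles for sgRNA2. KO points lie left of the control points for 25 members and right of them for NPC1, NPC2, ABCG1, MYLIP and SQLE.

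Promoter sequence was read for the 33 members with an entry in the RefSeq table (GRCh38.p14), as 300 bases from 250 before to 50 after the annotated start, and searched on both strands for 5 motifs. SREBP sites work beside the CCAAT box, the sequence bound by NF-Y, and the GC box GGGCGG, bound by SP1. CCAAT stood in 20 of the 33 member promoters (60.6%) and in 35.7% of all 27305 promoters of that length. It stood in 15 of 22 promoters of members that fell, in 3 of 5 of those that rose and in 2 of 4 of those not called. Members without an entry are left out, so 22 of the 25 that fell and 5 of the 7 that rose are covered. GGGCGG was in 30 member promoters (90.9%) against 44.6% of all, with 21 of 22, 4 of 5 and 3 of 4 in the same order. The 27305 promoters were not limited to expressed or protein-coding genes, while most members are both. No set matched to the members was counted, so these shares do not set the members apart from other expressed genes. The SREBP element in the exact form TCACNCCAC was in the SREBF2 promoter alone of the 33, against 1.15% of all promoters. Variant forms, and sites outside the 300 bases, were not searched, so the lack of a match does not show that a promoter has no SREBP site. CACGTG was in 5 (15.2% against 7.43%), and DR4, the direct repeat with a spacer of 4 bases that LXR binds, in none (0.0183% of all). Motifs were counted separately, whether or not they overlapped. A match describes letters and not a bound site.

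The 200 bases before the start are shown for 7 members: HMGCS1, FDPS, MSMO1, INSIG1, SREBF2 and SCD, which fell, and NPC1, which rose. Each is written 5′ to 3′ on the gene's strand, with CCAAT or its reverse complement ATTGG in capitals, and in SREBF2 also the SREBP element, whose first base is at -133 from the start.
HMGCS1, chr5:43313413-43313612, minus strand: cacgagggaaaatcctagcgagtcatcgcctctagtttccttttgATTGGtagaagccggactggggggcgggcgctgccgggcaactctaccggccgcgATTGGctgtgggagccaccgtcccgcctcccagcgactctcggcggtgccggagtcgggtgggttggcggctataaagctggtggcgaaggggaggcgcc
FDPS, chr1:155308666-155308865, plus strand: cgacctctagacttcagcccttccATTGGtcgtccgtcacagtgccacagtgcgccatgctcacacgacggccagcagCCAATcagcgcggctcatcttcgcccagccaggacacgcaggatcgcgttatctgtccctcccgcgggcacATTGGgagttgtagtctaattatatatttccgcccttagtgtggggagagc
MSMO1, chr4:165327469-165327668, plus strand: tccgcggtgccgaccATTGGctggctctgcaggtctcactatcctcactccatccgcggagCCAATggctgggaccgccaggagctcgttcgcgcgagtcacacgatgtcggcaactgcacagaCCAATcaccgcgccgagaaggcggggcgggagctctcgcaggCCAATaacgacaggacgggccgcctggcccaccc
INSIG1, chr7:155297678-155297877, plus strand: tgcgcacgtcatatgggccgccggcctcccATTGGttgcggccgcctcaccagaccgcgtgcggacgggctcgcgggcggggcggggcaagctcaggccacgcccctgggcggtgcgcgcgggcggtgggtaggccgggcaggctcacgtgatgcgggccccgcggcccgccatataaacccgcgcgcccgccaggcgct
SREBF2, chr22:41832905-41833104, plus strand: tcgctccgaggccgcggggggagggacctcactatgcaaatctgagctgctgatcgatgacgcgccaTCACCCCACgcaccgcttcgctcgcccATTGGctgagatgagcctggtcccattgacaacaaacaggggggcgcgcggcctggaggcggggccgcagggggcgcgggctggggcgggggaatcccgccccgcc
SCD, chr10:100347033-100347232, plus strand: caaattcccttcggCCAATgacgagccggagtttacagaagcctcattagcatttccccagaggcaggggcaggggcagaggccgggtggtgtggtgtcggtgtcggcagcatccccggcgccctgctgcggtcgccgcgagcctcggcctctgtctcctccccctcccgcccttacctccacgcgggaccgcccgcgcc
NPC1, chr18:23586507-23586706, minus strand: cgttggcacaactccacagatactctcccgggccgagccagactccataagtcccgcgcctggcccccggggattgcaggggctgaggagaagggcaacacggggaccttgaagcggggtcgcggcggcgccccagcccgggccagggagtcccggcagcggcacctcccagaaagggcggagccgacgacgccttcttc
MSMO1 has 4 CCAAT boxes in its window, FDPS 3, HMGCS1 2, INSIG1, SREBF2 and SCD 1 each, and NPC1 none. These 7 do not stand for all members. In the 300-base promoters read, CCAAT was in 15 of 22 from members that fell and 3 of 5 from members that rose. NPC2, MYLIP and SC5D rose and have it, and ELOVL6, with the steepest fall, does not. Over all members, 44 of 45 CCAAT matches lay before the start, between -23 and -229 with a median of -111.5, and 14 members had at least 2.

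The mevalonate branch leaned lower. Of its 9 enzymes 8 were lower (88.9%) and none higher, against 31.2% lower and 31.8% higher among all tested genes. The median log2 fold change was -0.63. All 8 had KO libraries wholly below control libraries, as did 25.6% of all tested genes. ACAT2 (GeneID 39, chromosome 6, 159762045 to 159779112 on GRCh38), which joins acetyl-CoA units in the cytosol, had the steepest fall of the branch. It read 112, 126, 122 and 126 CPM in the KO libraries and 219.6, 217, 231 and 244 CPM in the controls. No KO library came near a control library, and the KO level from the fit was 53.2% of the control level (log2 fold change -0.91 ± 0.045, adjusted p = 8.48e-13). HMGCS1 (GeneID 3157, chromosome 5, 43287470 to 43313412), the HMG-CoA synthase that uses that product, had the highest level per kilobase of the branch, 179.8 CPM per kb in KO and 285 in control. Its values were 993, 1042, 976 and 939 CPM in the KO libraries and 1512, 1461, 1651 and 1643 CPM in the controls, again without overlap (log2 fold change -0.67 ± 0.054, adjusted p = 1.23e-09).

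The kinases that follow had lower levels, 8.39 CPM per kb for MVK and 12.9 for PMVK in KO. MVK, which phosphorylates mevalonate, gave 16.6, 19.7, 20.1 and 20.6 CPM in the KO libraries and 29.96, 33.1, 32.4 and 34.4 CPM in the controls (log2 fold change -0.74 ± 0.071, adjusted p = 1.60e-08). PMVK, the next kinase, changed least of the members called in the branch. Its KO range of 20.4 to 23.5 CPM ended just under the control range of 23.7 to 26.1 CPM (log2 fold change -0.24 ± 0.071, adjusted p = 0.00637). MVD, which decarboxylates the product to isopentenyl diphosphate, gave 37.5, 43.6, 38.03 and 37.05 CPM in the KO libraries and 46.8, 57.4, 57.1 and 58.4 CPM in the controls. The groups did not overlap, and the gap between KO sgRNA1 replicate 2 and control sgRNA1 replicate 1 was narrow (log2 fold change -0.48 ± 0.071, adjusted p = 5.53e-06).

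Downstream, IDI1, the isomerase that makes the allylic partner, read 309.8, 331, 291 and 282 CPM in the KO libraries and 472, 435, 468 and 451 CPM in the controls (log2 fold change -0.60 ± 0.048, adjusted p = 1.14e-09). FDPS (GeneID 2224, chromosome 1, 155308866 to 155320665), which condenses these units to farnesyl diphosphate, read 136, 130.2, 133 and 145 CPM in the KO libraries and 199, 184, 221 and 243 CPM in the controls (log2 fold change -0.64 ± 0.052, adjusted p = 1.36e-09). Both sgRNA2 control libraries were above both sgRNA1 control libraries for FDPS, and all 4 were above every KO library. FDFT1, squalene synthase and the step that commits farnesyl diphosphate to sterols, read 213, 220.2, 217 and 221 CPM in the KO libraries and 342, 314, 338 and 349 CPM in the controls (log2 fold change -0.63 ± 0.042, adjusted p = 8.02e-11). GGPS1 stands on the branch away from sterols, making geranylgeranyl diphosphate for protein prenylation. Its ranges overlapped, 88.9 to 94.99 CPM in KO and 90.5 to 102 CPM in control (log2 fold change -0.05 ± 0.046, adjusted p = 0.308).

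Some of these genes share exon bases with others in GENCODE v29, and no source used here gives the strand setting of the counting. The overlap is 52.3% of ACAT2, 18.6% of FDPS, 14.95% of HMGCS1 and 14.8% of IDI1, all on the other strand, and 37.3% of GGPS1 with TBCE on the same strand. The part of these overlaps in the values was not tested.

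After squalene, 7 of 10 enzymes fell and 2 rose, against 31.2% and 31.8% of all tested genes. Their median was -0.40. The first enzyme departed from the rest. SQLE (GeneID 6713, chromosome 8, 124998505 to 125022283), squalene epoxidase and the first oxygenation of the pathway, read 1187, 1211, 1229.6 and 1124 CPM in the KO libraries and 958, 885, 951 and 990.0 CPM in the controls. All 4 KO libraries were above all 4 controls, and the KO level from the fit was 126% of the control level (log2 fold change 0.33 ± 0.050, adjusted p = 9.07e-06). LSS, which closes the epoxide into lanosterol, went the other way at 12.5, 10.7, 10.6 and 13.3 CPM in the KO libraries and 18.3, 18.8, 20.3 and 18.1 CPM in the controls (log2 fold change -0.68 ± 0.093, adjusted p = 2.20e-06). Counted per kilobase of the deposited gene length, SQLE was the highest sterol enzyme in both arms, 380.5 CPM per kb in KO and 303 in control, and LSS the lowest, 2.38 and 3.81. The ratio of SQLE to FDFT1, the enzyme just before it, ranged from 7.15 to 7.98 in KO libraries and from 3.94 to 3.99 in controls on that scale. SQLE over LSS ranged from 134 to 184 in KO and from 74.5 to 86.6 in control.

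Lanosterol demethylation enzymes fell together. CYP51A1 (GeneID 1595, chromosome 7, 92112153 to 92134803), which removes the 14-methyl group, read 138, 144, 137 and 129 CPM in the KO libraries and 222, 216, 217 and 209.7 CPM in the controls (log2 fold change -0.66 ± 0.042, adjusted p = 3.13e-11). MSMO1 (GeneID 6307, chromosome 4, 165327669 to 165343164), the C4 methyl oxidase, read 172, 180.3, 168 and 173 CPM in the KO libraries and 289.6, 249, 283 and 275 CPM in the controls (log2 fold change -0.67 ± 0.047, adjusted p = 1.73e-10). Neither gene had a KO library above any control library. NSDHL and HSD17B7, which complete C4 demethylation, had smaller falls of -0.40 ± 0.053 and -0.35 ± 0.093 (adjusted p = 1.48e-06 and 0.00264). HSD17B7 is a low gene, 10.98 to 13.4 CPM in KO and 14.3 to 16.6 CPM in control, and its pseudogene copy HSD17B7P2 was counted at 19.2% of its level. With all libraries thinned to the smallest, HSD17B7 lost its call (adjusted p = 0.0535). In GENCODE v29, 79.4% of the CYP51A1 exon bases also belong to the read-through gene AC000120.2 on the same strand, and its part in the value was not tested.

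The last steps were mixed. EBP, the isomerase of the B ring, fell from 79.8 ± 3.87 to 60.5 ± 3.11 CPM (mean ± SD, n = 4 each, log2 fold change -0.40 ± 0.048, adjusted p = 3.14e-07). DHCR7 (GeneID 1717, chromosome 11, 71427287 to 71449043), the reductase of 7-dehydrocholesterol, had the steepest fall after squalene. It read 106, 102, 105 and 104 CPM in the KO libraries and 179, 186, 198 and 194 CPM in the controls, with no overlap and 55.2% of the control level left (log2 fold change -0.86 ± 0.043, adjusted p = 9.43e-13). SC5D, the desaturase just before DHCR7, was called higher, at 224, 242, 221 and 244 CPM in the KO libraries and 225, 211, 197 and 206 CPM in the controls (log2 fold change 0.15 ± 0.048, adjusted p = 0.0106). Its ranges overlapped, and the call was lost without KO sgRNA1 replicate 2 (adjusted p = 0.0527), KO sgRNA2 replicate 2 (0.0727) or control sgRNA2 replicate 1 (0.0683). TM7SF2, a C14 reductase, was not called at 11.1 to 14.4 CPM in KO and 10.9 to 15.3 CPM in control (log2 fold change -0.11 ± 0.098, adjusted p = 0.345).

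**Figure D2:**
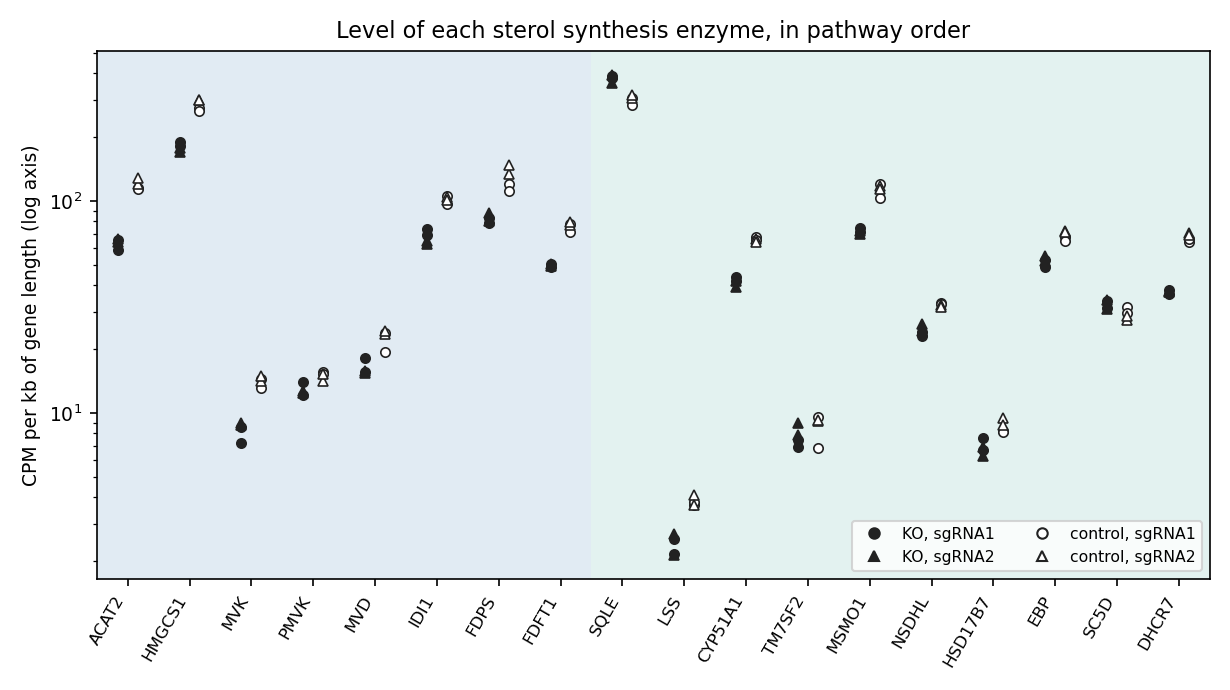
Level of each enzyme on the route from acetyl-CoA to cholesterol, in pathway order from ACAT2 to DHCR7, in each of the 8 libraries, as CPM per kilobase of gene length on a log axis (filled KO, open control, circles sgRNA1, triangles sgRNA2). SQLE is highest in both arms and lies higher in KO than in control, while FDFT1 before it and LSS after it lie lower in KO.

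Control of the SREBP switch also shifted down. Of 5 genes 4 were lower and none higher, with a median of -0.45. INSIG1 (GeneID 3638, chromosome 7, 155297878 to 155310235), the sterol-sensing anchor and itself an SREBP target, read 332, 331, 318 and 272 CPM in the KO libraries and 552, 548, 557 and 559.9 CPM in the controls. The lowest control library was far above the highest KO library (log2 fold change -0.83 ± 0.052, adjusted p = 2.96e-11). INSIG2, its paralogue that does not depend on SREBP in the same way, read 28.6, 30.5, 27.2 and 28.98 CPM in the KO libraries and 34.8, 31.2, 34.5 and 33.2 CPM in the controls (log2 fold change -0.24 ± 0.062, adjusted p = 0.00242). The ratio of INSIG1 to INSIG2 per kilobase was 7.81 to 9.73 in KO and 13.2 to 14.6 in control.

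SREBF2 (GeneID 6721, chromosome 22, 41833105 to 41907305), which encodes the SREBP chiefly tied to cholesterol genes, read 218, 202, 215 and 222 CPM in the KO libraries and 277, 274, 309 and 309.9 CPM in the controls (log2 fold change -0.45 ± 0.043, adjusted p = 1.59e-08). SREBF1, whose products drive fatty acid genes more, was a low gene at 10.7, 11.1, 11.1 and 10.5 CPM in the KO libraries and 16.1, 16.4, 19.04 and 17.9 CPM in the controls (log2 fold change -0.69 ± 0.086, adjusted p = 6.72e-07). Both fell without overlap. SREBF2 per kilobase was 15.01 to 17.5 times SREBF1 in KO libraries and 13.3 to 14.2 times in controls. SCAP, the escort, was not called: its values were 81.5, 78.1, 83.4 and 86.8 CPM in the KO libraries and 85.5, 87.5, 90.7 and 81.4 CPM in the controls (log2 fold change -0.06 ± 0.049, adjusted p = 0.293). These are RNA levels, and cleavage of the SREBP precursors was not measured.

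Sterol uptake and LXR export was the branch whose median was above 0. Of the 5 genes tested, 4 rose and 1 fell, where 31.8% of all tested genes rose and 31.2% fell. The median log2 fold change of the branch was 0.73. NPC1 (GeneID 4864, chromosome 18, 23506184 to 23586506), the membrane protein that passes cholesterol out of lysosomes, read 107, 102, 103 and 97.4 CPM in the KO libraries and 48.5, 54.4, 47.9 and 51.6 CPM in the controls. Every KO library was well above every control library, and the KO level from the fit was 204% of the control level (log2 fold change 1.03 ± 0.051, adjusted p = 8.46e-13). NPC2, the soluble lysosomal protein that hands cholesterol to NPC1, read 48.4, 50.2, 53.7 and 53.3 CPM in the KO libraries and 35.05, 23.4, 31.3 and 29.8 CPM in the controls (log2 fold change 0.73 ± 0.072, adjusted p = 2.30e-08). The pair rose together, with control sgRNA1 replicate 2, the shallowest library, lowest for NPC2.

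STARD4, a cytosolic sterol carrier and SREBP target, was the member of the branch that fell, at 89.2, 91.2, 73.5 and 74.8 CPM in the KO libraries and 103, 109, 117 and 112 CPM in the controls (log2 fold change -0.44 ± 0.063, adjusted p = 4.53e-06). The ratio of NPC1 to STARD4 per kilobase was 0.784 to 0.990 in KO and 0.289 to 0.351 in control. MYLIP, the ubiquitin ligase that degrades lipoprotein receptors and is an LXR target, read 32.6, 35.8, 34.5 and 35.1 CPM in the KO libraries and 25.4, 26.7, 29.3 and 24.00 CPM in the controls (log2 fold change 0.39 ± 0.069, adjusted p = 5.33e-05).

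ABCG1 (GeneID 9619, chromosome 21, 42199689 to 42297244), an LXR target that exports sterol to lipoprotein particles, had the largest fold change of the members. It read 14.4, 13.3, 10.7 and 11.1 CPM in the KO libraries and 2.10, 2.96, 2.48 and 2.60 CPM in the controls, with no overlap (log2 fold change 2.30 ± 0.14, adjusted p = 1.61e-11), on 105 counts over the control libraries and as few as 11 in a single library. Only 2.17% of tested genes had a higher log2 fold change. ABCA1, the exporter that shares LXR control with ABCG1, gave at most 0.742 CPM in KO and 0.404 CPM in control libraries. Its counts were too low for the main fit, so no difference was tested there.

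Fatty acid synthesis fell in 5 of 7 tested genes and rose in 1, against 31.2% and 31.8% of all tested genes. Its median was -0.56. ACLY (GeneID 47, chromosome 17, 41866917 to 41930545), which makes cytosolic acetyl-CoA from citrate, read 479, 483, 493 and 469 CPM in the KO libraries and 748, 679.9, 694 and 721 CPM in the controls (log2 fold change -0.56 ± 0.045, adjusted p = 1.24e-09). FASN (GeneID 2194, chromosome 17, 82078338 to 82098236), the fatty acid synthase, read 1081, 995, 1091 and 1111 CPM in the KO libraries and 1560.3, 1766, 1497 and 1497 CPM in the controls (log2 fold change -0.56 ± 0.058, adjusted p = 4.51e-08). SCD (GeneID 6319, chromosome 10, 100347233 to 100364826), the desaturase that makes oleate, read 666, 653, 685 and 629 CPM in the KO libraries and 1232, 1094, 1201 and 1245 CPM in the controls (log2 fold change -0.86 ± 0.051, adjusted p = 1.19e-11). In all 3, the highest KO library was below the lowest control library.

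ELOVL6 (GeneID 79071, chromosome 4, 110045846 to 110199202), which lengthens palmitate, had the steepest fall of all members. It read 33.6, 35.2, 31.8 and 28.8 CPM in the KO libraries and 70.3, 66.2, 64.3 and 66.3 CPM in the controls, leaving 48.1% of the control level (log2 fold change -1.05 ± 0.054, adjusted p = 1.47e-12), and 0.789% of tested genes had a lower log2 fold change. FADS1, the Δ5 desaturase, fell from 51.03 ± 2.70 to 39.4 ± 3.35 CPM (mean ± SD, n = 4 each, log2 fold change -0.38 ± 0.063, adjusted p = 2.17e-05). FADS2, the Δ6 desaturase and its neighbour, was called higher at 13.8, 10.7, 13.3 and 13.4 CPM in the KO libraries and 9.93, 10.5, 9.93 and 11.5 CPM in the controls (log2 fold change 0.31 ± 0.10, adjusted p = 0.0124). Its ranges overlapped, and the call was lost without KO sgRNA1 replicate 1 (adjusted p = 0.0657), without control sgRNA2 replicate 1 (0.0638), after thinning (0.0739) and with DESeq2 (0.0536).

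ACSS2, which makes acetyl-CoA from acetate and so stands beside ACLY, was not called at 19.7, 16.5, 17.3 and 18.1 CPM in the KO libraries and 16.2, 12.1, 16.7 and 15.9 CPM in the controls (log2 fold change 0.19 ± 0.090, adjusted p = 0.0763), and was called with library totals alone (adjusted p = 0.0374). ACACA, the carboxylase that commits acetyl-CoA to fatty acids, was counted at 0.132 to 0.371 CPM in KO and 0.325 to 0.808 CPM in control libraries. Of its 11 protein-coding neighbours within 500 kb, 10 were under 1 CPM as well, so these counts give no usable level of ACACA.

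Summed over each branch, where the most abundant genes weigh most, the KO arm held 64.5% of the control CPM for the mevalonate branch, 66.0% for SREBP control and 63.7% for fatty acid synthesis. The post-squalene sum was 97.8%. SQLE made up 60.2% of it in KO and 46.9% in control, and the other 9 genes of the branch summed to 73.3% of their control level. The uptake and export sum was 129%. Over all 38 members the sum was 7156 ± 105 CPM in KO and 9855 ± 186 CPM in control libraries (SD, n = 4 each), or 72.6%.

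Members were also compared within each guide number. The targets of the control guides are not named, so KO and control lines are matched by number alone. With sgRNA1, 22 members were lower and 5 higher against the sgRNA1 controls, where 23.3% and 24.3% of all tested genes were. With sgRNA2, 24 were lower and 6 higher, where 25.4% and 25.7% were. The medians were -0.39 and -0.48. Called lower with both were 22 members, and higher with both were SQLE, NPC1, NPC2, ABCG1 and MYLIP, where 20% and 20.3% of all tested genes were. HSD17B7, INSIG2 and SC5D were called with sgRNA2 alone of the pair, and PMVK, GGPS1, TM7SF2, SCAP, ACSS2 and FADS2 with neither. All 36 members had the same sign with both guides, as did 87.0% of all tested genes. Across the 36 members the 2 sets of log2 fold changes had a Pearson correlation of 0.974, and across all 14455 genes it was 0.868. The comparisons share no library, and members are not independent replicates.

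The size of the change was compared between guides as well. The log2 fold change was larger in size with sgRNA2 in 24 of 36 members (66.7%) and in 47.2% of all tested genes, for instance -0.55 ± 0.069 and -0.78 ± 0.069 for HMGCS1, while FASN was the other way, -0.68 ± 0.076 and -0.44 ± 0.076. In a test of the difference itself, no member and none of all 14455 genes (0%) passed by edgeR, and none by DESeq2. At an unadjusted p under 0.05 there were 5 members (STARD4, HMGCS1, MVD, FASN and FDPS) and 4.41% of all genes. STARD4 had the smallest p: its log2 fold change was -0.22 ± 0.066 with sgRNA1 and -0.63 ± 0.062 with sgRNA2, a difference of -0.41 ± 0.090 (adjusted p = 0.921 by edgeR, unadjusted 2.63e-04). Without control sgRNA1 replicate 2 that difference was -0.44 and passed (adjusted p = 0.0401).

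Lines of one arm were compared with each other. Control sgRNA2 against control sgRNA1 gave no member past the edgeR or DESeq2 threshold (0.0277% of all genes by edgeR), and 4 members at an unadjusted p under 0.05, where 8.25% of all genes were. KO sgRNA2 against KO sgRNA1 gave none by either tool (0% of all genes), and 5 members unadjusted, where 4.24% of all genes were. These comparisons reuse the libraries of the within-guide tests.

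Leaving out 1 library leaves a group with a single library, which is then assumed to vary like the other groups, and several within-guide calls near the threshold changed. Within sgRNA1, STARD4 and MYLIP lost their calls at much the same size: STARD4 was -0.21 (adjusted p = 0.0805) without KO sgRNA1 replicate 1, and MYLIP 0.33 (0.0588) without KO sgRNA1 replicate 2 and 0.36 (0.103) without control sgRNA1 replicate 1. MVD was -0.21 (0.169) without KO sgRNA1 replicate 1 and -0.22 (0.0571) without control sgRNA1 replicate 2, and FADS1 -0.25 (0.177) without control sgRNA1 replicate 1. Calls were gained by PMVK without KO sgRNA1 replicate 2 (-0.36, 0.0380), ACSS2 without control sgRNA1 replicate 1 (0.59, 0.0420) and INSIG2 without control sgRNA1 replicate 2 (-0.25, 0.0416).

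Within sgRNA2, SQLE was 0.21 (adjusted p = 0.0700) without KO sgRNA2 replicate 1 and 0.25 (0.0700) without control sgRNA2 replicate 1, and INSIG2 was -0.23 (0.0874) and -0.25 (0.101), no longer called. With DESeq2 INSIG2 was not called either (0.0984). SC5D was 0.13 (0.184) without KO sgRNA2 replicate 2, 0.17 (0.161) without control sgRNA2 replicate 1 and 0.23 (0.0517) without control sgRNA2 replicate 2, and MYLIP was 0.24 (0.0969) without the last of these. PMVK and FADS2 passed within sgRNA2 when a control sgRNA1 library, which is not in that contrast, was left out of the shared fit: PMVK was -0.23 (0.0420) without replicate 1 and -0.24 (0.0362) without replicate 2, and FADS2 was 0.32 (0.0492) without replicate 1.

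**Figure D3:**
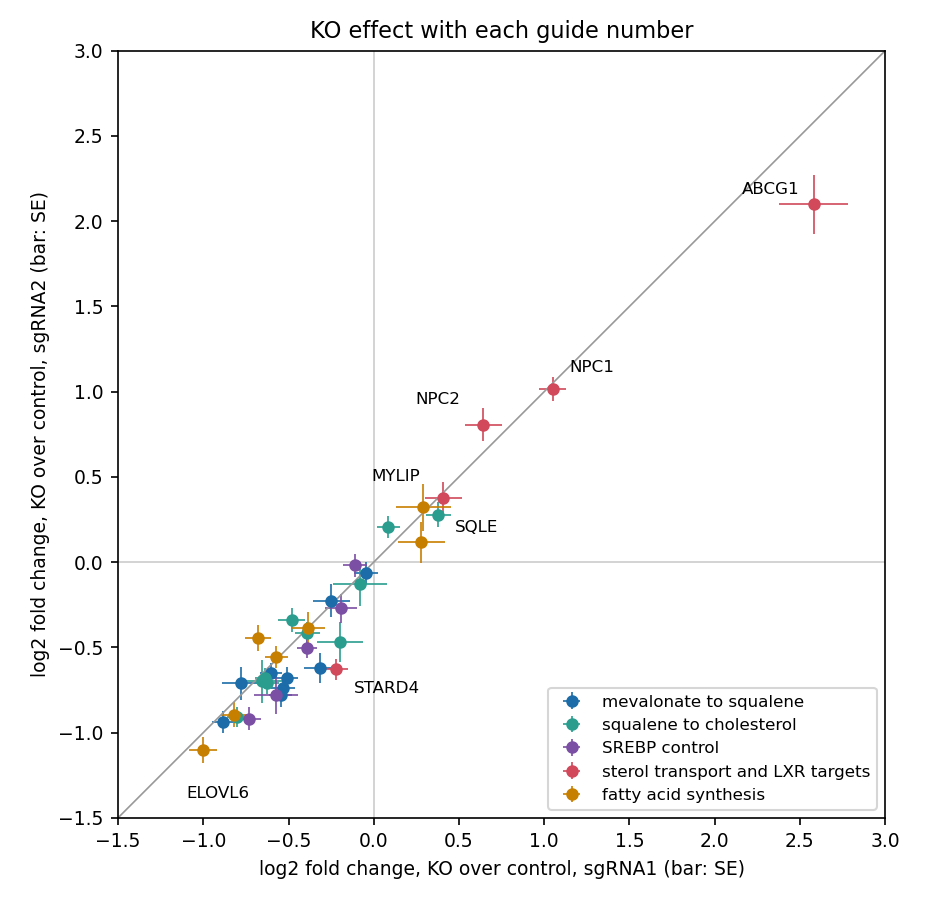
Log2 fold change of each tested member within sgRNA1 (horizontal axis) and within sgRNA2 (vertical axis), with bars for the SE and colours for the branch. Points lie near the line of equal change, ABCG1 and NPC1 at the upper right and ELOVL6, ACAT2 and SCD at the lower left.

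Genes around the same pathways that are not members were taken from a list of 71 in 5 roles. Of 67 tested (4 were too low), 23 were higher, 28 lower and 16 not called, with a median of -0.01, against the background of 31.8% higher and 31.2% lower. Isoprenoid use, the enzymes that attach or extend isoprenoid chains, had 5 of 12 lower and none higher, ICMT among them (-0.38 ± 0.041, adjusted p = 7.91e-08), the methyltransferase that finishes prenylated proteins. Partners of the sterol enzymes had 3 of 5 lower, including TMEM97, a sterol-regulated membrane protein (-0.63 ± 0.047, adjusted p = 4.78e-10).

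SREBP processing and enzyme degradation had 3 higher and 5 lower of 11 (27.3% and 45.5%), where 31.8% and 31.2% of all tested genes were. The site-1 and site-2 proteases that release SREBP, MBTPS1 and MBTPS2, were slightly higher, 0.20 ± 0.039 and 0.16 ± 0.044 (adjusted p = 2.13e-04 and 0.00385). Elongation, desaturation, activation and supply of fatty acids had 10 higher and 11 lower of 24 (41.7% and 45.8%). SLC25A1, the carrier that exports citrate to ACLY, had the smallest p of the 67 and read 87.1, 89.1, 90.2 and 94.1 CPM in the KO libraries and 161, 159, 179 and 171 CPM in the controls (log2 fold change -0.90 ± 0.043, adjusted p = 4.68e-13). ME1, malic enzyme and a source of NADPH, and HACD3, a dehydratase of the elongation cycle, fell by less, -0.48 ± 0.050 and -0.42 ± 0.042 (adjusted p = 6.13e-08 and 3.29e-08). ELOVL4, the elongase of very long chains, rose, at 103, 104, 91.3 and 92.7 CPM in the KO libraries and 53.6, 47.7, 52.6 and 50.8 CPM in the controls (log2 fold change 0.91 ± 0.051, adjusted p = 5.96e-12), opposite in sign to ELOVL6.

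Sterol storage, transport and LXR is the role nearest to the uptake and export branch. It had 10 higher and 4 lower of 15 (66.7% and 26.7%) and a median of 0.33, against 31.8% and 31.2% of all tested genes. NCEH1, a cholesteryl ester hydrolase, rose by 0.81 ± 0.084, and STARD3, a sterol carrier of late endosomes, by 0.51 ± 0.046 (adjusted p = 4.98e-08 and 7.63e-09). The receptors SCARB1 and LRP8, which bind lipoproteins, fell, -0.77 ± 0.047 and -0.72 ± 0.053 (adjusted p = 1.74e-11 and 3.27e-10). The LXR genes NR1H3 (LXRα, 7.78 ± 0.435 CPM in KO and 5.47 ± 0.680 CPM in control, mean ± SD, n = 4 each) and NR1H2 (LXRβ, 71.6 ± 2.39 and 61.6 ± 3.34) were both called higher, by 0.47 ± 0.12 and 0.22 ± 0.051 (adjusted p = 0.00222 and 8.39e-04). RXRA, which encodes their partner RXRα and is named here after its values were seen, fell, -0.61 ± 0.082 (adjusted p = 1.71e-06).

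**Figure D4:**
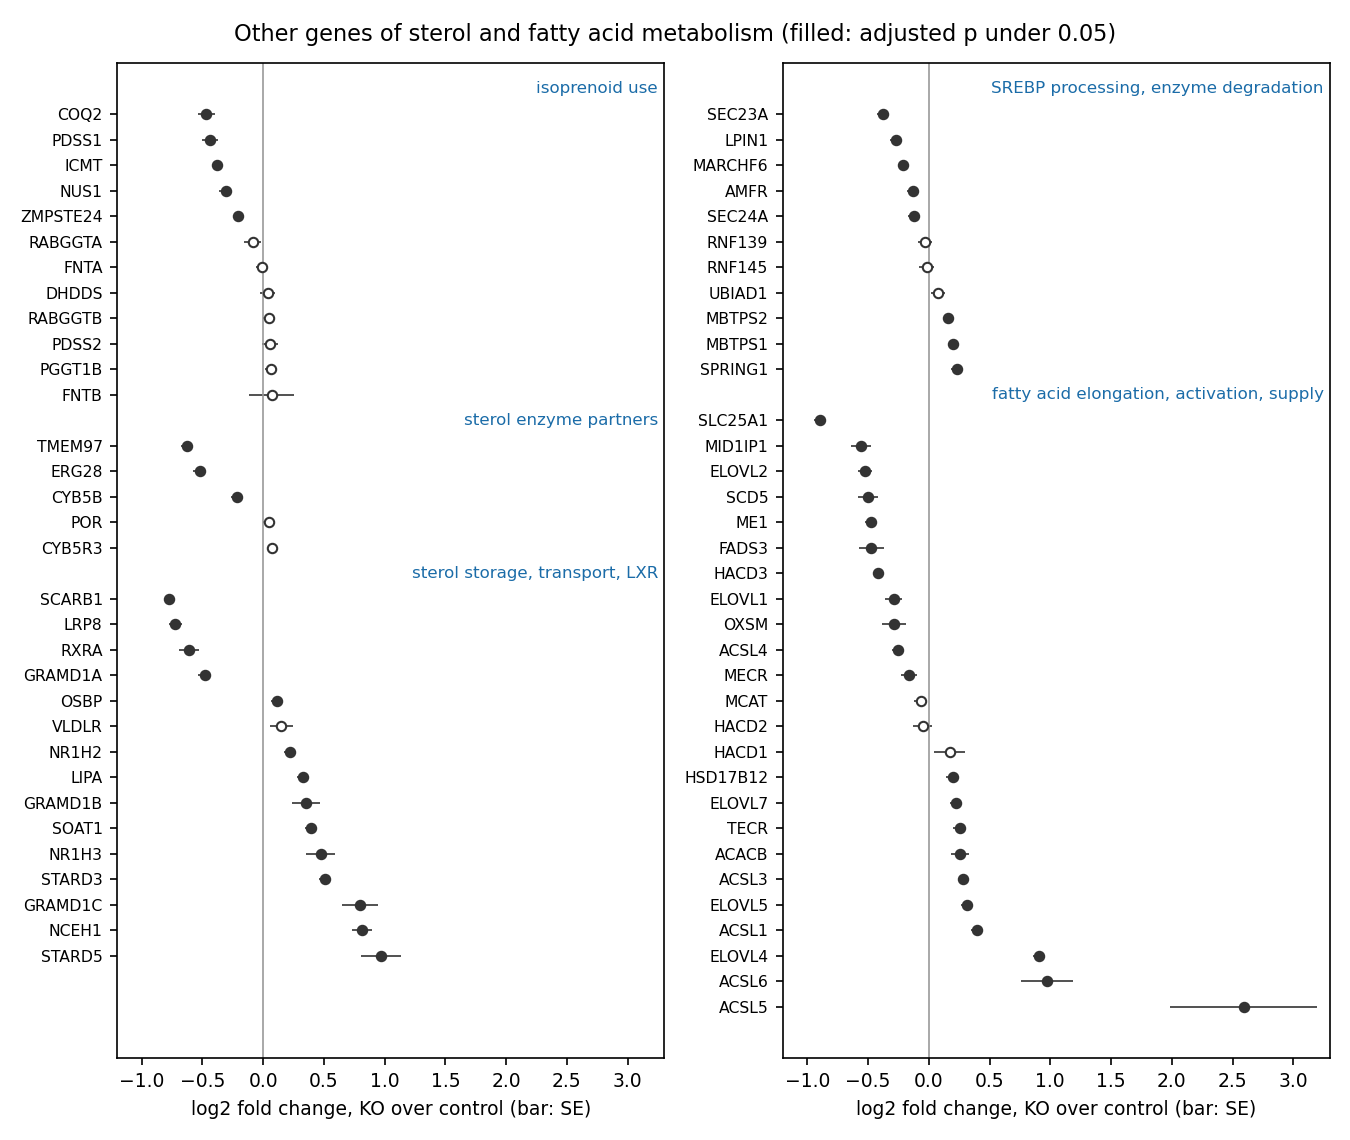
Log2 fold change with SE of the 67 tested genes around the pathway (horizontal axis), in rows by role, with filled points for genes past the adjusted p of 0.05. The sterol storage, transport and LXR role has 10 genes called higher and the isoprenoid role has none, and ACSL5, the point farthest right, lies below 1 CPM in both arms.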

How the data were processed

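The 8 libraries were counted by the authors, who deposited raw counts per gene with a gene length in each table. The submitters' processing notes name featureCounts and hg38, and for the aligner, the annotation and the strand setting the entry is: not given in the sources used here. Of 28395 entries, 459 without a gene ID (0.0284 to 0.0425% of counts) were left out, and 27936 remained. Symbols came from a gene name table matched by Entrez ID.

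Genes were kept by edgeR's filterByExpr (minimum count 10, minimum total 15), which left 14455, and library totals were scaled by TMM. The main test was the edgeR quasi-likelihood F test (version 4.0.16 in R 4.3.3), with guide number and arm as terms. Within-guide effects, their difference and the line comparisons came from a model of 4 group means. Benjamini-Hochberg adjustment ran over the 14455 genes, and SE is the size of the log2 fold change over the square root of F. Counting limits precision most in control sgRNA1 replicate 2, with 3723992 counts.

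All 38 members are named. Of the 71 genes around the pathway, the 10 with the smallest p are named, with MBTPS1, MBTPS2, NR1H2 and NR1H3. The members and lists were chosen with earlier results of these data known. Alternatives were DESeq2 (version 1.42.0), its size factors in edgeR, library totals alone, no filter, a filter of 1 CPM in 4 libraries, no guide term, a replicate block, thinning all libraries to the smallest, and leaving out each library. The fits were tested on simulated counts. Promoters and gene positions are from RefSeq (GRCh38.p14), and exon overlaps from GENCODE v29 (GRCh38).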

Additional observations from a re-analysis of the deposited data

Results flagged for a closer look

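In each arm of 4 libraries, a member was marked when its highest or lowest library stood apart from the other 3, with a gap to the nearest that, as a share of the whole range, passed Dixon's 95% critical value for 4 samples. Of 76 groups (38 members in 2 arms), 5 were marked, and chance marks about 1 in 20. MVD was marked in both arms: KO sgRNA1 replicate 2 read 43.6 CPM above 37.0 to 38.03 in the other KO libraries, and control sgRNA1 replicate 1 read 46.8 CPM below 57.1 to 58.4 in the other controls. These are the 2 libraries that brought the KO and control ranges of MVD close together. Control sgRNA1 replicate 1 was also low for TM7SF2, at 10.9 CPM against 14.7 to 15.3. Control sgRNA1 replicate 2, the shallowest library, was low for ACSS2, at 12.1 CPM against 15.9 to 16.7. KO sgRNA1 replicate 2 was low for FADS2, at 10.7 CPM against 13.3 to 13.8. TM7SF2 and ACSS2 were not called between arms, and FADS2 was.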

How the results depend on the processing

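The count of members lower in KO was 25 without any 1 library and 24 or 25 under the other alternatives, and that of members higher was 5 to 7 and 6 to 8. Single members were followed in KO against control and within each guide, and STARD4 also in the difference between guides. The comparisons between lines of one arm were not part of this tally. In it, 1489 values kept direction and side of the threshold, 23 lost a call, 8 gained one and 5 turned sign. The 5 were small and not called: GGPS1 was 0.016 after thinning to the smallest library and ranged from -0.11 (without control sgRNA1 replicate 2) to 0.064 (without control sgRNA1 replicate 1) within sgRNA1, SCAP within sgRNA2 from -0.10 (without control sgRNA2 replicate 2) to 0.060 (without control sgRNA2 replicate 1, with 0.0039 without KO sgRNA2 replicate 1), and TM7SF2 within sgRNA1 from -0.41 (without control sgRNA1 replicate 1) to 0.066 (without control sgRNA1 replicate 2). The median of the uptake and export branch was 0.77 with library totals alone, 0.80 after thinning and 0.67 to 0.85 without 1 library, and the post-squalene median was -0.36 after thinning; the cause was not tested. With no filter, 1 member was higher in control sgRNA2 than in control sgRNA1 (FDPS). The count of members lower in the difference between guides was 0 or 1 without 1 library.

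Counts over all genes moved by more than 1.5 times where few were called. The difference between guides gave 0 higher and 0 lower in the main fit, 7 and 4 with no filter, 22 and 3 without control sgRNA1 replicate 1, 8 and 15 without control sgRNA1 replicate 2, and 1 and 2 without KO sgRNA2 replicate 1. Control lines gave 1 and 3, then 29 and 57 with no filter, 15 and 48 without control sgRNA1 replicate 1, and 63 and 53 without replicate 2. KO lines gave 0 and 0, then 2 and 9 with no filter and 4 and 9 without KO sgRNA2 replicate 1.

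Same-numbered replicates did not deviate together (correlations of -0.053 to 0.028), so the numbers were not taken as pairs. With a replicate block, 7 members were higher and 25 lower in KO, and all counts of members called were as without it. ABCA1 had too few counts to be tested in the main fit, and ABCG1 had few counts in single control libraries. ACACA was not in the main fit either, and the cause of the low counts of these genes was not tested.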

Other observations

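ACACA was low in every library together with the genes around it, which was looked at after its values were seen. Within 500 kb on either side of it on chromosome 17 (GRCh38) there are 11 other protein-coding genes, and 10 of them had a mean under 1 CPM over the 8 libraries, against 35.5% of all 19171 protein-coding genes. AATF had 0 counts in all libraries, SYNRG 0.0086 CPM, TADA2A 0.131 CPM and GGNBP2 0.147 CPM, and LHX1, one of the HEK293 markers, lies there too. DDX52 was the exception at 4.29 CPM. The cause was not tested.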
